A study of Homo sapiens with 3 samples.

Results

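The genes described here are 38 members of glycolysis and of the transcriptional response to low oxygen, read out in TC32, an established Ewing sarcoma cell line driven by the fusion protein EWS-FLI1. They were chosen by symbol, as deposited rows whose gene name equals a listed symbol or holds it within a joined name, and all 38 were found among 22714 gene names. The older symbol PKM2 was counted with PKM, and no member stood in a joined name. The series holds 3 RNA-seq libraries, 1 per group. The first came from control cells (WT Control), another from cells with knockdown of EWS-FLI1, whose title reads shEF and whose values are headed dEF, and the last from cells given 3 µM of the compound YK, dissolved in DMSO, for 15 h. YK, named here as in its library's title, is a small molecule known for blocking the contact of EWS-FLI1 with an RNA helicase. All cells grew in RPMI with serum, and no low-oxygen culture is described. Whether the control had DMSO or a hairpin, and how long the knockdown ran, is not stated in the labels. Since each group is 1 library, replicate spread could not be measured and no test is given, so higher and lower describe these libraries only. Fewer cells of a kind and less RNA per cell cannot be told apart in such bulk samples.

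Glycolysis splits glucose into pyruvate in the cytosol. Hexokinases trap glucose, phosphofructokinase commits it to the pathway, and lactate dehydrogenase turns pyruvate into lactate when it is not burned in mitochondria. Under low oxygen the transcription factor HIF-1, whose regulated subunit HIF1A is marked for destruction by the prolyl hydroxylases EGLN1 and EGLN3 when oxygen is present, binds the core sequences ACGTG and GCGTG near its targets. Those targets include many glycolytic enzymes and genes of blood vessel growth, pH control, mitophagy and collagen maturation. HIF1A is controlled mostly at the protein level, so its messenger RNA does not report its activity.

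Values were deposited as FPKM, fragments relative to transcript length and library size. They differed in overall scale, and each library was therefore multiplied by a factor that puts the median gene at the same level, 0.325 for the control, 1.44 for the knockdown and 2.12 for YK. A relative log2 ratio is the difference of log2(scaled FPKM + 1), which understates the change of scarce genes, and the threshold for calling a gene higher or lower was a ratio of 1 in size, a 2-fold difference. Genes with a mean deposited FPKM of at least 1 were compared, 9939 in all and 31 of the 38 members. Deposited FPKM are given throughout in the order control, knockdown and YK. From the steps between low values, compared genes held an estimated 24300000, 14800000 and 18400000 fragments in that order. Standard errors (SE) come from these estimates and cover counting error only. FLI1, whose reads include those of the fusion, had 65.9, 1.48 and 8.29 FPKM, or relative log2 ratios to control of -2.84 after knockdown and -0.27 with YK. Of 5 Ewing sarcoma markers CD99 was listed at 0 in all 3 libraries, STEAP1, NR0B1 and FLI1 were low in the knockdown library, and NKX2-2 had a ratio of 0.43 there. The blood and endothelial markers were at 0.291 FPKM or below in every library. The 38 members together made up 3.00%, 1.99% and 2.55% of the summed FPKM of named genes.

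After knockdown of EWS-FLI1 the members differed by role, a split that in part followed level. Of the 16 compared glycolytic enzymes and lactate dehydrogenases 7 were lower and 1 higher, and of the 7 compared HIF targets outside glycolysis and oxygen sensing 6 were higher and 0 lower. Of the 31 compared members, 10 were higher and 7 lower, or 32.3% and 22.6%, against 17.3% higher and 17.0% lower among all compared genes. The lower members lay mostly among abundant genes, which were low as a whole in this library. Among genes with the highest levels, a group described below, 47.5% passed the threshold downward. Relative to genes of like level, also described below, none of the 16 enzymes passed it. Their median was then -0.05 in place of -0.86. Of the 7 HIF targets 5 stayed higher in that comparison. The 10 higher members were ADM, P4HA2, KDM3A, P4HA1, SLC2A1, HIF1A, PFKFB3, BNIP3, VEGFA and PFKL, and the 7 lower were TPI1, ENO2, GPI, LDHB, ALDOA, ENO1 and LDHA. ADM is counted among the 10 and among the 6 higher HIF targets. It passed the filter on mean FPKM through the knockdown library, where it was high. With YK none of the 31 passed the threshold in either direction, where 2.41% of compared genes were higher and 1.69% lower. The members' median ratio was 0.12 after knockdown and 0.02 with YK, beside 0.01 and 0.03 over all compared genes. Without any scaling, 7 of the 10 higher members (SLC2A1, PFKL, PFKFB3, HIF1A, VEGFA, BNIP3 and P4HA1) had a ratio below 0, as the whole library was shifted down. As deposited, 6 of the 38 members had more FPKM in the knockdown library than in the control, namely HK1, ADM, CA9, P4HA2, NDRG1 and KDM3A, and 1, CA9, with YK. Of the 31 compared members these were 3 and 0, against 8.73% and 1.37% of all compared genes.

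**Figure D1:**
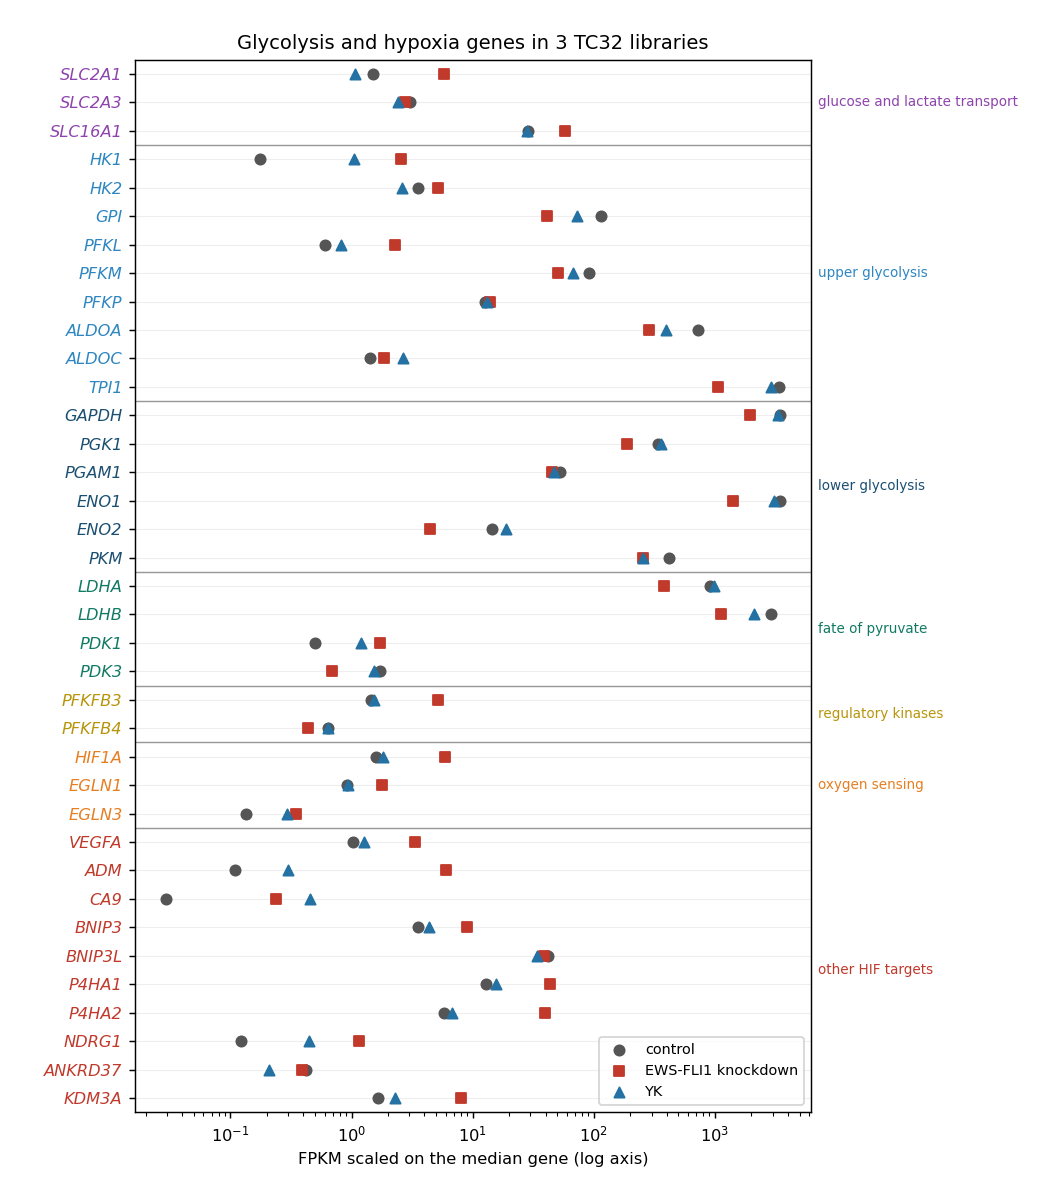
Scaled FPKM on a log axis of 37 members in the control (circles), knockdown (squares) and YK (triangles) libraries, 1 library each, grouped by role; SLC16A3, listed at 0 in both treated libraries, is left out. The knockdown squares of ADM, P4HA2, P4HA1 and KDM3A lie to the right of both other libraries, and those of TPI1, ENO1, LDHA and LDHB to the left.

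**Figure D2:**
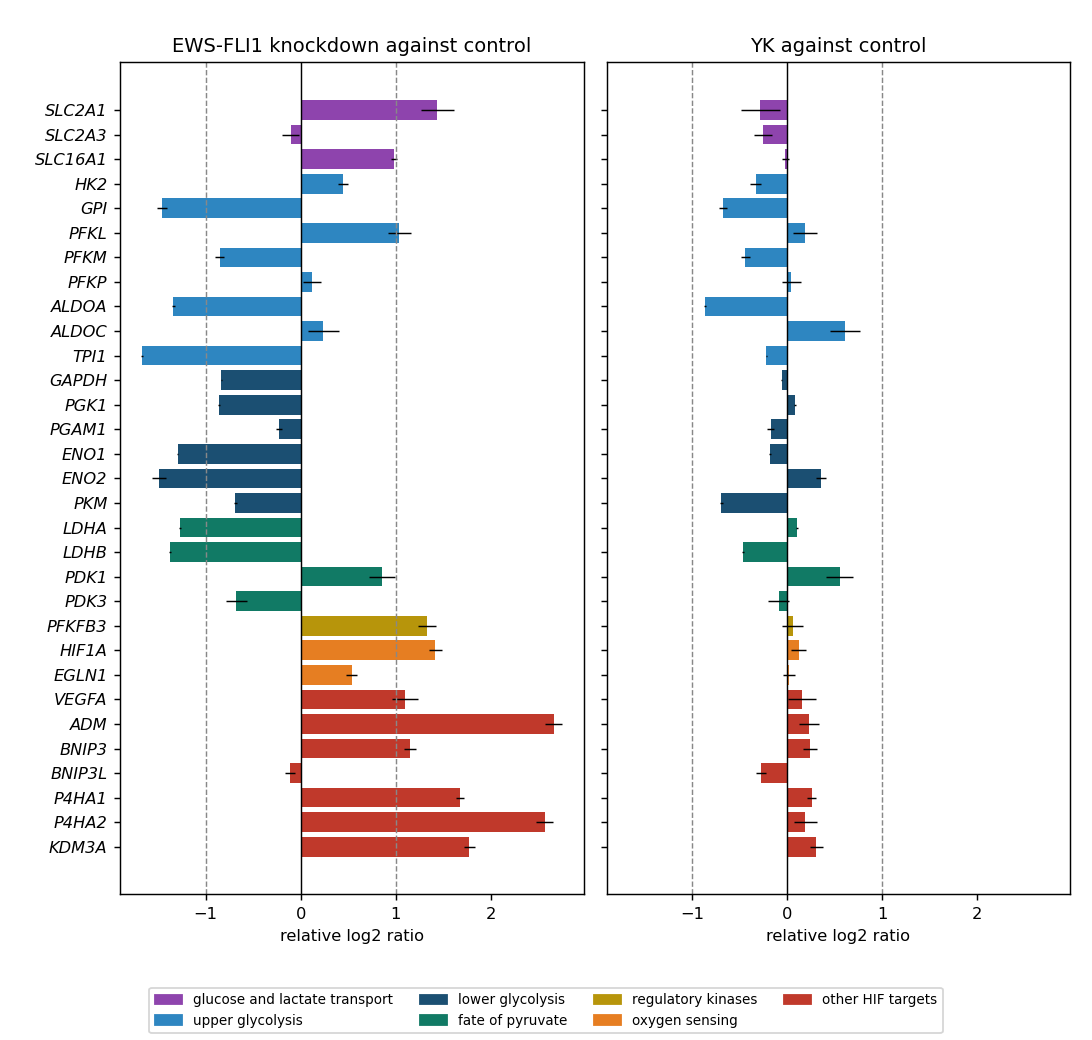
Relative log2 ratio to control of the 31 compared members after knockdown (left) and with YK (right), with bars coloured by role, error bars of 1 SE of counting error and dashed lines at the 2-fold threshold. In the left panel 10 bars pass the threshold upward and 7 downward, and in the right panel none does.

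Glucose enters tumour cells mainly through the transporters SLC2A1 (GLUT1) and SLC2A3 (GLUT3). SLC2A1 had 4.66, 4.04 and 0.502 FPKM, or 1.51, 5.81 and 1.06 after scaling. It was 2.71-fold higher after knockdown (relative log2 ratio 1.44, SE 0.17), and with YK its ratio was -0.28 (SE 0.21), close to its counting error. SLC2A3 had 9.43, 1.93 and 1.14 FPKM, and its ratios of -0.11 and -0.26 were small in both. Lactate leaves or enters through SLC16A1 (MCT1) and SLC16A3 (MCT4). SLC16A1 had 88.0, 39.9 and 13.3 FPKM, or 28.6, 57.4 and 28.1 after scaling, with the knockdown library above both others. Its ratio after knockdown was 0.98 (SE 0.03), just under the threshold, and with YK it was -0.02. SLC16A3, the lactate exporter that is induced by hypoxia in many tissues, was listed at 0.0675 FPKM in the control, about 1 fragment, and at 0 in the other libraries, so no fold is given.

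Upper glycolysis held 9 members and 8 were compared. Of these 3 were lower and 1 higher after knockdown, against 17.0% and 17.3% of all compared genes. TPI1, which interconverts the triose phosphates, had 10430, 737 and 1374 FPKM, or 3386, 1061 and 2908 after scaling, and was the lowest member after knockdown at -1.67 (SE 0.01). GPI, glucose phosphate isomerase, had 356, 28.7 and 34.0 FPKM (-1.46 after knockdown, SE 0.05). ALDOA, the main aldolase of muscle and of most tumours, had 2217, 197 and 186 FPKM (-1.34, SE 0.01). In these 3 enzymes the YK library lay between the others after scaling. PFKM, the muscle-type phosphofructokinase, was the most abundant of its family with 282, 34.9 and 31.8 FPKM and a ratio of -0.85 after knockdown, short of the threshold. PFKL, the liver type, was scarce at 1.85, 1.59 and 0.389 FPKM and was higher after knockdown at 1.04 (SE 0.12), on about 43 fragments in the control. PFKP, the platelet type, had 39.2, 9.67 and 6.21 FPKM and a ratio of 0.12. HK2, the hexokinase typical of tumours, had 10.9, 3.61 and 1.24 FPKM and a ratio of 0.45. ALDOC, the brain aldolase, had 4.35, 1.28 and 1.26 FPKM and a ratio of 0.24.

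Lower glycolysis had 2 of 6 members lower after knockdown and 0 higher, against 17.0% and 17.3% of all compared genes. Relative to genes of like level, a comparison described below, 0 were lower and 0 higher. The median of the 6 then went from -0.85 to 0.09. ENO1, the ubiquitous enolase, had 10696, 982 and 1446 FPKM (-1.30 after knockdown, SE 0.01). ENO2, the neuronal enolase and a marker of neuroendocrine differentiation, had 44.4, 3.10 and 8.86 FPKM (-1.50, SE 0.07). After scaling ENO2 was at 14.4, 4.46 and 18.8, so the knockdown library was low against both others. GAPDH and PGK1, which make the first reducing equivalents and the first ATP of the pathway and often serve as reference genes, had ratios of -0.84 and -0.86 after knockdown. GAPDH stood at 10615, 1339 and 1565 FPKM, and PGK1 at 1041, 129 and 169. PKM, pyruvate kinase, had 1276, 178 and 121 FPKM, with the same ratio of -0.69 in both treated libraries. Relative to genes of like level PKM stood at 0.35 after knockdown and at -0.81 with YK. Its values do not separate the M1 and M2 forms. PGAM1, phosphoglycerate mutase, had 163, 31.4 and 22.1 FPKM and a ratio of -0.22. Several of these enzymes have many processed pseudogenes, and the handling of reads that fit more than 1 place is not given in the sources used here, so their values are uncertain to that extent.

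The lactate dehydrogenases were low after knockdown, and the pyruvate dehydrogenase kinases diverged. LDHA, the form that favours lactate production, had 2802, 261 and 461 FPKM (-1.27 after knockdown, SE 0.01). LDHB, the heart form, had 8985, 779 and 997 FPKM (-1.38, SE 0.01). LDHB was thus the more abundant form per length in every library. PDK1, a HIF target that shuts pyruvate out of the mitochondrial cycle, had 1.55, 1.19 and 0.570 FPKM, with ratios of 0.85 after knockdown (SE 0.14) and 0.55 with YK (SE 0.14). PDK3 had 5.28, 0.482 and 0.730 FPKM, with ratios of -0.68 (SE 0.11) and -0.09. PFKFB3, whose product makes the strongest activator of phosphofructokinase, had 4.46, 3.57 and 0.730 FPKM, and was higher after knockdown at 1.33 (SE 0.09).

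The oxygen-sensing members were scarce in all 3 libraries. HIF1A had 4.88, 4.10 and 0.852 FPKM. It was 2.67-fold higher after knockdown (1.42, SE 0.07), and with YK it lay close to the control (0.12, SE 0.08). EGLN1, the main prolyl hydroxylase that marks HIF1A, had 2.82, 1.24 and 0.445 FPKM and ratios of 0.54 and 0.02.

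Of the 10 HIF targets outside glycolysis and oxygen sensing, 7 were compared. Of these 6 were higher after knockdown and 0 lower, against 17.3% and 17.0% of all compared genes. ADM, which encodes the vasodilator peptide adrenomedullin, had 0.337, 4.20 and 0.141 FPKM. Its ratio of 2.67 (SE 0.09) was the highest of all members, on about 6, 308 and 14 fragments. ADM passed the filter on low values through the knockdown library, where it was high. P4HA2 and P4HA1 encode catalytic subunits of collagen prolyl 4-hydroxylase, which stabilises the collagen triple helix. P4HA2 had 17.8, 27.2 and 3.18 FPKM (2.57, SE 0.09), and P4HA1 had 39.5, 30.0 and 7.34 (1.68, SE 0.04). P4HA2 was 5.94-fold and P4HA1 3.20-fold higher, and the knockdown library stood above both others. After scaling P4HA2 was at 5.77, 39.2 and 6.73, and P4HA1 at 12.8, 43.2 and 15.5. Collagen-making fibroblasts also express these genes, and of 3 fibroblast markers LUM and PDGFRB were higher after knockdown at 1.34 and 1.44 and DCN was lower at -1.86. The summed scaled FPKM of the 3 markers was 23.0, 40.9 and 20.1 in the order above, and their part in the P4HA values was not tested. KDM3A, a histone H3 lysine demethylase, had 5.07, 5.60 and 1.07 FPKM (1.78, SE 0.06). BNIP3, a mitophagy receptor, had 10.8, 6.26 and 2.04 FPKM (1.15, SE 0.07), while its relative BNIP3L had 129, 26.8 and 16.2 (-0.11, SE 0.05). VEGFA, the main growth factor of blood vessels, had 3.16, 2.31 and 0.593 FPKM (1.10, SE 0.14).

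The stretches of DNA upstream of these genes are shown for the 4 highest members after knockdown and for 2 lower members, LDHA and ENO2, a choice made after the values were seen. Each line gives the 250 bases before a RefSeq gene start in GRCh38.p14 on the strand of the gene, taking the window furthest upstream where several are listed. Capitals mark ACGTG or GCGTG on either strand, which in reverse read CACGT and CACGC.
ADM, chr11:10304823-10305072, plus strand: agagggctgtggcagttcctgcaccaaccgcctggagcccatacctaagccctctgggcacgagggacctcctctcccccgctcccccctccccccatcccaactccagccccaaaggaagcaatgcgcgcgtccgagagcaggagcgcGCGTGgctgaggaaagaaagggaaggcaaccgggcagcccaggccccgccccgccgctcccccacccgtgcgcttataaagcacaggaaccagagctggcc
P4HA2, chr5:132227092-132227341, minus strand: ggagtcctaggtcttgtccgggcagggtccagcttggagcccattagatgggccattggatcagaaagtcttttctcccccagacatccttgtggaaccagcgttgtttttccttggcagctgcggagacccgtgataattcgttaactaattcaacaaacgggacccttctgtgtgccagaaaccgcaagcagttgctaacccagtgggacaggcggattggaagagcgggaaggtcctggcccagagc
KDM3A, chr2:86441121-86441370, plus strand: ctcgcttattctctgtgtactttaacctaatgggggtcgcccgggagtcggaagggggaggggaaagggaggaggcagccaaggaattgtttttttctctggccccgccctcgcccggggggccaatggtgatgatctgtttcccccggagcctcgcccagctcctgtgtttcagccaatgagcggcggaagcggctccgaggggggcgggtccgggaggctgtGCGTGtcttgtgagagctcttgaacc
P4HA1, chr10:73096867-73097116, minus strand: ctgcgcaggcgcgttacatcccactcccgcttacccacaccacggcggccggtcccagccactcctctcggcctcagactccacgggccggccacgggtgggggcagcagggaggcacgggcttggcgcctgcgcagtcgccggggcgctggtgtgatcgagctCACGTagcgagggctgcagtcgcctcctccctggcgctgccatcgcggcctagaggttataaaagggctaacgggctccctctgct
LDHA, chr11:18394313-18394562, plus strand: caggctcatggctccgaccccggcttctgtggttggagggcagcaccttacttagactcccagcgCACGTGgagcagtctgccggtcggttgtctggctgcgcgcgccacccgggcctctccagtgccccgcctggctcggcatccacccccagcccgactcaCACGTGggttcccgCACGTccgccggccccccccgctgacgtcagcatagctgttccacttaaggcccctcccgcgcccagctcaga
ENO2, chr12:6914330-6914579, plus strand: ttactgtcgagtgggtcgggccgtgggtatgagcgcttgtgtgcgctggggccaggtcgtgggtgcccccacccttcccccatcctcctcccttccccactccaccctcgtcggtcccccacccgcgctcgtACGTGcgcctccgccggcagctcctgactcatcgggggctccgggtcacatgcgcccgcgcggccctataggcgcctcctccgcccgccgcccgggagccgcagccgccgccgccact
ADM had 1 match, starting 101 bases before the gene start, KDM3A 1 at 26 bases and P4HA1 1 at 86 bases, and P4HA2 had none in this window. LDHA had 5 matches at 3 places, of which 2 places were CACGTG, the E-box, whose letters hold ACGTG on both strands. ENO2 had 1 at 118 bases. Windows were listed for 33 of the 38 members, 61 in all. For 44 of the 61, bases after the start were found in a transcript of the gene on its strand. The hypoxia core was present in 7 of 9 symbols with a window among those higher after knockdown and in 6 of 7 among those lower, counting any window of a gene. Over all 27305 symbols the share was 47.4%, and genes here often had more than 1 window. Counted by window it was 9 of 12 and 9 of 11, against 59% of all member windows and 43.2% of all windows. Windows of the same gene can overlap, as those of KDM3A do. The letters GGAAGGAA, a pair of ETS cores in tandem, stood in 0 of the 9 and in 1 of the 7, ALDOA, against 3.76% of all symbols. A match is a run of letters, not a site.

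Level moved with direction in the knockdown library across all genes. When compared genes were divided into 5 equal groups by their level with YK, the median ratio after knockdown was 0.65 in the scarcest group and -0.96 in the most abundant. Transcript length moved with it as well, with medians of -0.50 for the shortest group and 0.38 for the longest. In the most abundant group, 47.5% of genes were lower and 3.97% higher. The lower members TPI1, GPI, ALDOA, ENO1, LDHA and LDHB all lay in that group, and ADM, SLC2A1, PFKFB3, VEGFA and PFKL in the scarcest, where 33.0% of genes were higher. With YK the medians of the 5 groups by level in the knockdown library ran only from -0.03 to 0.08.

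**Figure D3:**
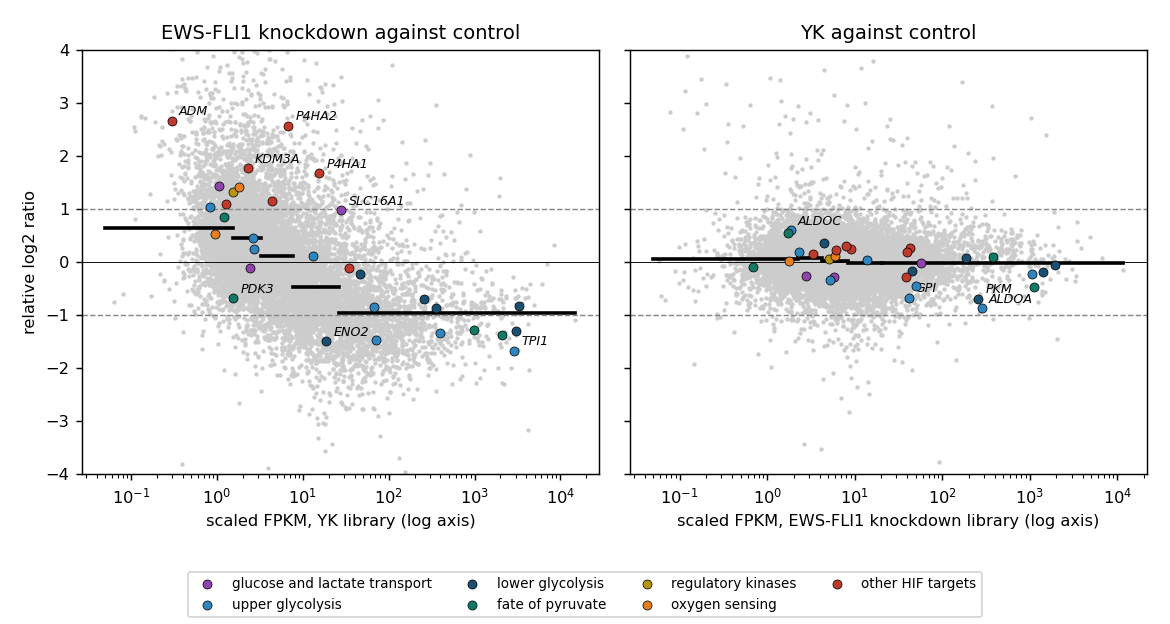
Relative log2 ratio against scaled FPKM in the library outside the comparison (log axis), after knockdown (left) and with YK (right); grey points are compared genes, coloured points the 31 members, black bars the medians of 5 equal groups by level, dashed lines the threshold. The axes leave out 20 and 26 genes below 0.05 and 70 and 25 genes beyond a ratio of 4; in the left panel the bars descend from 0.65 to -0.96 and P4HA2, P4HA1 and SLC16A1 lie above the genes of their level.

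The ratios were therefore also taken relative to genes of like level, by subtracting a running median over genes ranked by the library outside the comparison. After knockdown 6 of 31 members were then higher and 1 lower, against 13.8% and 8.66% of all compared genes. The 6 were P4HA2 at 2.67, P4HA1 at 2.23, SLC16A1 at 1.85, ADM at 1.55, KDM3A at 1.28 and BNIP3 at 1.03, and the 1 lower member was PDK3 at -1.21. None of the 16 compared glycolytic enzymes and lactate dehydrogenases passed the threshold, and their median went from -0.86 to -0.05. TPI1 and ENO2 were the lowest of these at -0.79 and -0.90. Of the 7 compared HIF targets outside glycolysis and oxygen sensing, 5 were higher in this reckoning and 0 lower. ADM, which passed the filter through the knockdown library, is 1 of the 5. The median of the 7 was 1.28 in place of 1.68. PKM, PGAM1, GAPDH and PGK1 lay between 0.04 and 0.65. HIF1A stood at 0.95, SLC2A1 at 0.84, PFKFB3 at 0.80 and VEGFA at 0.57, all under the threshold. With genes alike in both level and transcript length as the reference, 5 of 31 members were higher and 1 lower, against 13.6% and 8.16% of compared genes with a length. P4HA2 then stood at 2.83, P4HA1 at 2.17, SLC16A1 at 1.76 and KDM3A at 1.20, with ADM also past the threshold, while BNIP3 at 0.98 was under the threshold.

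**Figure D4:**
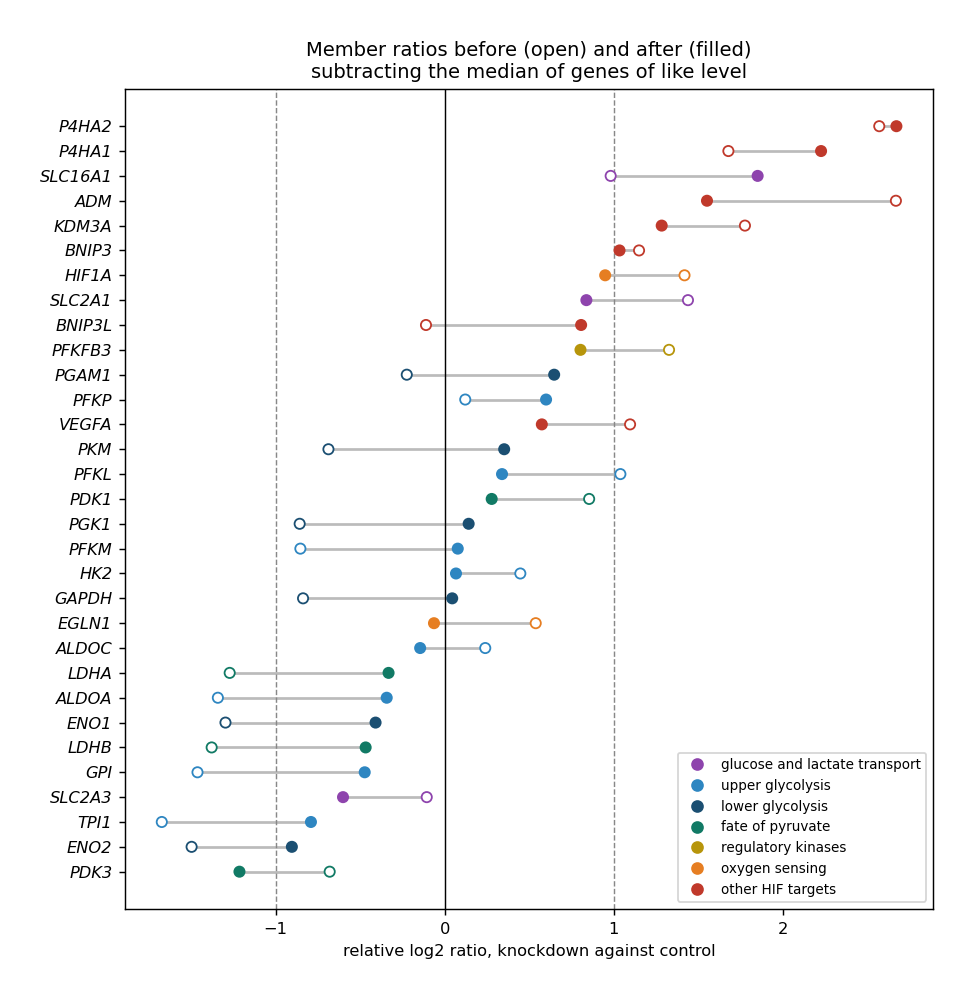
Relative log2 ratio after knockdown of the 31 compared members as measured (open circles) and after subtracting the median of genes of like level (filled circles), ordered by the latter, with dashed lines at the threshold. The lower glycolytic enzymes move inside the lines, PDK3 moves out to -1.21 and SLC16A1 to 1.85, and P4HA2 and P4HA1 stay above 2-fold in both.

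Ratios between related genes within a library do not depend on the scaling of libraries. They still carry the trend with level where a scarce and an abundant gene are paired. Where transcripts differ in length they also carry the trend with length. The balance of the glucose transporters differed after knockdown. SLC2A1 to SLC2A3 was 0.494, 2.09 and 0.443, a 4.24-fold difference between knockdown and control (2.08 in log2, SE 0.29). Both transporters were scarce, so this pair spans little of the range of levels. PDK1 to PDK3 was 0.293, 2.47 and 0.780, an 8.44-fold and a 2.66-fold shift toward PDK1 (3.08, SE 0.39, and 1.41, SE 0.38). PDK1 rested on about 28 fragments in the control. The longest coding transcript was 14.2 kb for PDK1 and 1.92 kb for PDK3. Relative to genes alike in level and length, PDK1 stood at 0.15 and PDK3 at -1.08 after knockdown. P4HA2 to P4HA1 was 0.450, 0.906 and 0.433, a 2.02-fold shift after knockdown (SE 0.11 in log2). BNIP3 to BNIP3L was 0.0842, 0.234 and 0.126. PFKFB4, a kinase of the same family as PFKFB3, stood to it at 0.439, 0.0850 and 0.417.

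In the lactate dehydrogenase pair YK stood apart. LDHA made up 23.8% of the summed FPKM of LDHA and LDHB in the control, 25.1% after knockdown and 31.6% with YK. Against the control the LDHA to LDHB ratio was 1.48-fold higher with YK (0.57 in log2, SE 0.01) and 1.08-fold higher after knockdown. The enolase pair went in opposite directions, since ENO2 was 0.413% of the summed enolases in the control, 0.314% after knockdown and 0.609% with YK. HK2 to HK1 was 20.4, 2.02 and 2.48, where HK1 rested on about 28 fragments in the control. ALDOC was 0.196% of the aldolase pair in the control and 0.648% and 0.673% in the treated libraries.

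**Figure D5:**
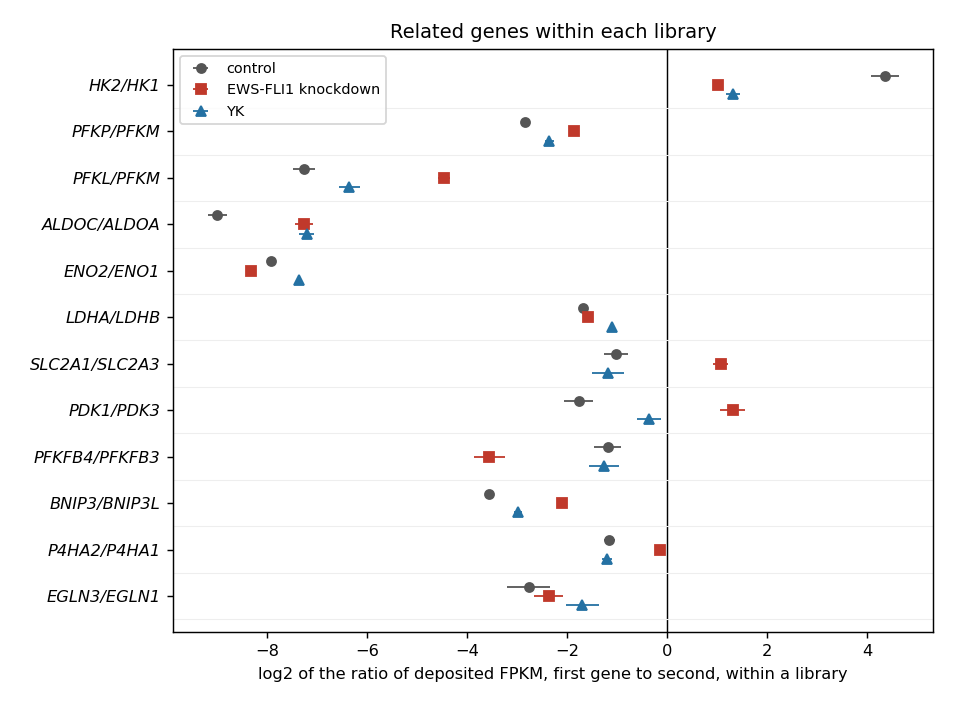
Log2 of the ratio of deposited FPKM between related genes within the control (circles), knockdown (squares) and YK (triangles) libraries, with 1 SE of counting error; 0 marks equal levels. SLC2A1/SLC2A3 and PDK1/PDK3 cross 0 in the knockdown library, and LDHA/LDHB lies furthest right with YK.

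With YK the members' ratios to control ran from -0.87 to 0.60. The lowest were ALDOA at -0.87 (SE 0.01), PKM at -0.69 (SE 0.01) and GPI at -0.68 (SE 0.04). They stood on about 21134, 17385 and 1641 fragments in that library, so counting error was small beside these differences. Relative to genes of like level 0 of the 31 were higher and 0 lower (2.32% and 1.73% of all compared genes), and with length as well 0 and 0 (2.03% and 1.83%). At a 1.5-fold threshold 1 member was higher, ALDOC, and 3 were lower, ALDOA, PKM and GPI, against 8.28% and 7.07%. At that threshold knockdown had 12 higher and 12 lower members, against 29.3% and 29.5%. The highest were ALDOC at 0.60 (SE 0.16) and PDK1 at 0.55 (SE 0.14), on about 59 and 28 fragments in the control. TPI1, GAPDH, ENO1 and LDHA were within 0.22 of the control. The 7 compared HIF targets outside glycolysis and oxygen sensing ran from -0.28 for BNIP3L to 0.31 for KDM3A. None of the 10 members that were higher after knockdown exceeded 0.31.

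The same members can be set against each other in the treated libraries, a comparison that shares both libraries with those above and is no separate evidence. Relative to knockdown, 4 of 31 members were higher with YK and 8 lower, against 15.3% and 14.5% of all compared genes. The higher ones were ENO2 at 1.86, TPI1 at 1.45, LDHA at 1.37 and ENO1 at 1.11. The lower ones were ADM at -2.44, P4HA2 at -2.38, SLC2A1 at -1.72, KDM3A at -1.47, P4HA1 at -1.42, HIF1A at -1.30, PFKFB3 at -1.27 and SLC16A1 just past the threshold. Relative to genes of like level in the control, 1 member was higher, ENO2 at 1.53, and 6 were lower, against 7.71% and 11.8%. The 6 were P4HA2, P4HA1, SLC16A1, SLC2A1, KDM3A and PKM, the last at -1.07, while ADM at -0.93 was under the threshold. With length as well the counts were again 1 and 6, against 6.71% and 11.9%. ADM at -1.79 was then among the 6, and PKM at -0.97 was not. At 1.5-fold they were 9 and 12, against 27.5% and 26.6%.

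The 7 members under the filter were all scarce. HK1, the hexokinase of most resting tissues, had 0.537, 1.79 and 0.499 FPKM, and its ratio after knockdown was 1.61 (SE 0.07). That is past the threshold, but the filter on deposited FPKM leaves HK1 out of the counts of higher members. After scaling HK1 was at 0.174, 2.57 and 1.06. NDRG1, a hypoxia-inducible growth regulator, had 0.379, 0.807 and 0.211 FPKM (0.95 after knockdown), on about 3 fragments in the control. CA9, the carbonic anhydrase used as a tissue marker of hypoxia, had 0.0905, 0.164 and 0.213 FPKM, on about 2, 14 and 25 fragments. EGLN3, a HIF-induced prolyl hydroxylase, had 0.414, 0.241 and 0.138 FPKM, and ANKRD37 had 1.29, 0.269 and 0.0990, with ratios of 0.25 and -0.03 after knockdown. PFKFB4 had 1.96, 0.304 and 0.305 FPKM (-0.19). With SLC16A3 at 1 fragment or fewer, CA9, SLC16A3 and EGLN3 were near the limit of detection at this depth.

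Further genes of the hypoxia pathway were mixed after knockdown. Of 14 genes of the HIF core machinery 11 were compared, and EP300 and CREBBP, the coactivators of HIF, were higher at 1.37 and 1.02, while TCEB1, the elongin C subunit of the VHL ligase, was lower at -1.85. These 2 of 11 and 1 of 11 stand against 17.3% and 17.0% of all compared genes, and relative to genes of like level none passed the threshold (EP300 0.90, CREBBP 0.57, TCEB1 -0.76). Of 29 further HIF targets 20 were compared, with a median of 0.47. Of the 20, 6 were higher and 4 lower, against 17.3% and 17.0% of all compared genes. Relative to genes of like level 6 were higher and 1 lower, against 13.8% and 8.66%. Their median was then 0.12 over the 20, or 0.01 with length as well. ANGPTL4, a lipase inhibitor, was at 2.50 (SE 0.11) on about 2 fragments in the control and passed the filter through the knockdown library, and PLOD2, a collagen lysyl hydroxylase, had 26.5, 33.5 and 4.63 FPKM (2.36). The lowest were TFRC, the transferrin receptor, at -1.99, FAM162A at -1.64 and AK4, an adenylate kinase of mitochondria, at -1.31. With YK, 1 of these 20 was higher and 1 lower, PLOD1 at -1.03, against 2.41% and 1.69% of all compared genes, and the core machinery had 0 past the threshold. Among 22 other isozymes and partners of glycolysis 18 were too scarce to compare. Of the 4 compared, 1 was higher and 1 lower after knockdown, against 17.3% and 17.0% of all compared genes. SLC16A4, a monocarboxylate transporter relative, was higher at 2.10, and ENO3, the muscle enolase, was lower at -1.10. Relative to genes of like level these 2 stood at 1.73 and -1.20.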

How the data were processed

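RNA-seq was done on 1 library per group of TC32 cells. Per the labels' protocols, total RNA was converted to cDNA with a SMARTer kit, sheared and amplified. The submitters' processing notes name Cufflinks 2.2.1, TopHat and CASAVA 1.8.2, with GRCh37 (hg19) as the build. The authors deposited FPKM per locus, 88434 loci, of which 24751 carried a gene name. For annotation, inter-library scaling and multiply mapped reads, the method is not given in the sources used here.

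Loci were summed by gene name. Each library was divided by its median ratio to the geometric mean of the 3, taken over 9883 compared genes detected throughout. Log2 ratios used a pseudocount of 1 and a threshold of 1, with no test. Members and gene lists were chosen with earlier results of these data known. All members are accounted for, and of other lists up to 3 highest and 3 lowest past the threshold are named, except for an item that is not reported here. The worth of 1 fragment came from the lowest values of single-transcript olfactory receptor genes, 0.0654 FPKM in 1 kb for the control, 0.0171 for the knockdown and 0.0127 for YK. Fragments used the median coding transcript length of GENCODE release 29, and the length trend the longest, matched by name for 8430 of 9939 genes (84.8%). Reading depth from steps assumes that 1 fragment is the lowest value. Promoter sequences are RefSeq, GRCh38.p14, and no coordinates were converted. Scripts ran in Python 3.11.15 with pandas 2.3.3. The scaling was tested on simulated data in which most genes were unchanged and no trend with level or length was set. That test does not cover a trend with level such as the knockdown library had. Alternatives were other scalings, pseudocount, filters, threshold, exact names and trends with level and length, the length trend being chosen after seeing the data.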

Additional observations from a re-analysis of the deposited data

How the results depend on the processing

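Without any scaling the counts after knockdown were 1 higher and 19 lower, with a median of -1.83, those with YK were 29 lower with a median of -2.29, and 1 was higher with YK than after knockdown. By construction these carry the shift of the whole libraries, whose medians over all compared genes were -1.75 and -2.20. Of all compared genes 3.03% were higher and 71.4% lower after knockdown. With YK 92.2% were lower, and 5.08% were higher with YK than after knockdown. In that setting the ratios after knockdown of SLC2A1 (-0.17), PFKL (-0.14), PFKFB3 (-0.26), HIF1A (-0.20), VEGFA (-0.33), BNIP3 (-0.70) and P4HA1 (-0.38) changed sign, and no other setting run reversed a called member. Centring deposited ratios gave 11 lower after knockdown, against 23.6% of all compared genes. With YK it gave 3 higher and 3 lower, against 12.3% and 4.49%. Scaling on 11 reference genes, 4 of which were past the threshold themselves after knockdown, shifted the median gene by 0.27 after knockdown, 0.11 with YK and -0.20 between treatments, and gave 12 members higher and 4 lower after knockdown. All compared genes then split into 2426 higher and 949 lower, against 1715 and 1689. Upper quartile scaling moved no count by over 1.5 times, and shifted the median gene by 0.12 between treatments. A pseudocount of 0.1 gave 1 higher with YK, PDK1 at 1.12, against 6.33% of all compared genes. A mean FPKM of at least 5, which leaves 19 members, gave 3 higher after knockdown with a median of -0.84, and 3 lower between treatments. Over all genes in that setting the shares were 11.2% and 11.1%. With the level trend removed 6 were higher and 1 lower after knockdown, and with level and length removed 5 and 1. Between treatments 1 was higher in both. At 1.5-fold, 12 were lower after knockdown, 1 higher and 3 lower with YK, and 9 higher between treatments. Exact names changed nothing, since no member stood in a joined name. No paired analysis was possible because each group has 1 library. For the same reason no library could be left out.

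P4HA2, P4HA1 and KDM3A were higher after knockdown in every setting that kept them, apart from no scaling. ADM, which passed the filter through the knockdown library, ran from 1.55 to 4.88. Depth limits CA9, SLC16A3, EGLN3, NDRG1 and ADM most, at 12 fragments or fewer in the control.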

Other observations

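The pyruvate dehydrogenase complex, which carries pyruvate into the mitochondrial cycle, had 7 of 8 genes compared, with 5 lower and 1 higher after knockdown, against 17.0% and 17.3% of all compared genes. Relative to genes of like level 1 was lower and 1 higher, against 8.66% and 13.8%, and the median went from -1.16 to -0.23. PDHA1, its catalytic alpha subunit, had 332, 23.2 and 40.6 FPKM in the control, knockdown and YK libraries (-1.66 after knockdown), and PDHB had 374, 33.1 and 49.1 (-1.33). The pair of phosphatases that switch the complex on parted, PDP1 with 6.42, 8.03 and 1.14 FPKM (2.03) and PDP2 with 22.0, 1.57 and 2.13 (-1.32). Relative to genes of like level PDP1 stood at 1.57 and PDP2 at -1.41, and PDHA1 at -0.60. With YK none of the 7 passed the threshold.

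Of the pentose phosphate pathway 6 of 7 genes were compared. RPE and RPIA, both of its non-oxidative branch, were lower after knockdown at -1.15 and -1.06, where 17.0% of all compared genes were lower. Relative to genes of like level RPE and RPIA stood at -0.23 and -0.78, and none of the 6 passed the threshold. The pathway median was 0.16 in that reckoning, in place of -0.86. Of 11 genes of gluconeogenesis and glycogen 7 were compared and 0 passed the threshold in either treated library. BSG, the chaperone that brings SLC16A1 to the membrane, had 107 FPKM in the control, 26.0 after knockdown and 14.7 with YK, with a ratio of 0.10 after knockdown where SLC16A1 had 0.98.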
